A study of Mus musculus with 383 samples.

Results

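The subject is 8 genes of cholesterol synthesis and its control, followed across 4 brain regions of the same mice. They were Hmgcs1, Idi1, Fdft1, Sqle, Lss, Sc5d, Dhcr7 and Insig1, taken as every probe set annotated to 1 of these symbols alone, which gave 20 of 45037 probe sets and 8 of 18193 named genes. Expression had been measured on Affymetrix arrays in 383 brain samples (cortex 98, hippocampus 83, hypothalamus 94, the others thalamus) from 117 male F2 mice, whose inbred grandparents were C57BL/6J and 129S1/SvImJ. No group of arrays served as an untreated control: every animal had passed through the same behavioural tests, electrode surgery, a baseline sleep recording, 6 h of sleep deprivation and 1 h of restraint, was then left undisturbed, and gave tissue at 16 weeks of age around the middle of the light phase. Each F2 male carries its own mixture of the alleles of both strains. The arrays differ by region and by mouse rather than by treatment, and also by hybridization batch, cohort and RNA integrity. A mouse gave at most 1 array per region.

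Cholesterol is made in the brain itself, because lipoproteins of the blood do not cross the blood-brain barrier, and most of it lies in myelin, the membrane that oligodendrocytes wrap around axons. The pathway runs from acetyl units through mevalonate and the isoprenoids to squalene, which is closed into lanosterol and then trimmed to cholesterol. When membrane sterol falls, the INSIG proteins release the escort protein SCAP, which carries the transcription factor SREBP-2 to the Golgi. SREBP-2 is cut there and turns on the enzymes of the pathway together.

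The stretches before the start sites of 4 members are shown. Hmgcs1 and Idi1 were called with each other within hypothalamus and thalamus. Sc5d and Insig1 ranked closest to genes of their own chromosome, and so in large part did Hmgcs1, so these are not separate groups. Sequences and positions are those of RefSeq on GRCm38.p6, 5′ to 3′ on the gene's strand, and each covers the 250 bases before the annotated start. Capitals mark 4 motifs searched on both strands: TCACNCCAC, a form of the sterol regulatory element, CCAAT, the box bound by NF-Y, GGGCGG, the GC box bound by Sp1, and CACGTG, an E-box. No base belonged to more than 1 of these motifs (0 bases in each window), and a capital run that ends a stretch continues past the start.
Hmgcs1 (chr13:119690101-119690350, plus strand): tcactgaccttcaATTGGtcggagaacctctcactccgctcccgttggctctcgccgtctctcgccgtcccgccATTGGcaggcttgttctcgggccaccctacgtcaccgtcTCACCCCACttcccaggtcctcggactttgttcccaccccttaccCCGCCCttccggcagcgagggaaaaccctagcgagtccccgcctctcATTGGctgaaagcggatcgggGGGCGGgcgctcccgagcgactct
Idi1 (chr13:8885356-8885605, plus strand): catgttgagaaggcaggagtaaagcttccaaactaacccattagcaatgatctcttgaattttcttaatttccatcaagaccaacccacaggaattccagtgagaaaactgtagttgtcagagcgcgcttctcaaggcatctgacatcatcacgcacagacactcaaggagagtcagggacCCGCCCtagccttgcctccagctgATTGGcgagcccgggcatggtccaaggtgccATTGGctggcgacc
Insig1 (chr5:28071162-28071411, plus strand): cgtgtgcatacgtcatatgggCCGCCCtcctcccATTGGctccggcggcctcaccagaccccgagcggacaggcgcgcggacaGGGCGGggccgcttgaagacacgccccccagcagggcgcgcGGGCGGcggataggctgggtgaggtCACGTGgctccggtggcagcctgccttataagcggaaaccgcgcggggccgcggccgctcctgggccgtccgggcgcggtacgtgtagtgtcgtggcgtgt
Sc5d (chr9:42264301-42264550, minus strand): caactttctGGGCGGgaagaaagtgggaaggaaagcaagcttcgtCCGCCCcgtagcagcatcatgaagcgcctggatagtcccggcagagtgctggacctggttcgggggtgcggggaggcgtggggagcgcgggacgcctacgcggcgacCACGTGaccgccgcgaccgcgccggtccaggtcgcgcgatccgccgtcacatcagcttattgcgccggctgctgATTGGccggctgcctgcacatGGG

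Promoter entries were matched for 6 of the 8 members, 8 entries in all, of which 3 were of Dhcr7. Counted over windows of 300 bases (250 before and 50 after the start), TCACNCCAC lay in 1 of the 8 entries, that of Hmgcs1, against 1.24% of 32851 promoters of all genes. CCAAT lay in 6 of the 8 entries and in at least 1 entry of each of the 6 genes, against 37.4% of all promoters. GGGCGG lay in 7 of the 8 entries, against 35.7% of all promoters, and CACGTG in 3 entries, those of Insig1, Sc5d and 1 of Dhcr7, against 7.15%. These are matches of letters and no record of binding.

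The labelled tissues were checked on markers in cortex and thalamus, the regions whose levels were compared. A fully common scale was not shown for them. The median cortex minus thalamus difference of all genes was -0.20, and -0.058 after quantile normalization of the arrays of both regions. All 6 measured cortical markers were higher in cortex, with a median log2 difference of 3.56, and all 7 thalamic markers were lower there, with a median of -4.17. Striatal markers were higher in the cortex samples (6 of 6) and habenular markers higher in the thalamus samples (5 of 5). In hippocampus and hypothalamus, 769 and 335 probe sets had means outside the range from 0 to 16, against 0 and 0 in cortex and thalamus, so their levels were read only among mice of the region and never against another region. The median RNA integrity number (RIN) ran from 7.7 in cortex to 9.2 in hypothalamus, and none of the 32 fits of a member on RIN in a region passed (limma, lowest adjusted p 0.988, 1 fit with an unadjusted p under 0.05, background 0.0% of 180148 fits).

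All 8 members were lower in cortex than in thalamus, and 4 of them, Insig1, Dhcr7, Idi1 and Sqle, by 0.5 or more on the log2 scale. Of all probe sets, 61.1% were called lower and 24.8% higher in cortex (limma, Benjamini-Hochberg adjusted p under 0.05 over 45037 probe sets), and 16.3% were lower by at least 0.5, so the first count is close to what most genes showed. The median difference of the members was -0.50, against -0.20 for all 18193 genes. A single probe set stood for each gene, the one with the highest mean over the cortex and thalamus arrays.

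Hmgcs1, the enzyme that joins acetyl units into HMG-CoA at the head of the pathway, differed least. Its values ran from 12.15 to 12.63 with a median of 12.38 in cortex, and from 12.15 to 12.66 with a median of 12.47 in thalamus. The ranges overlapped almost completely, and the difference was -0.080 ± 0.014 (SE), with an adjusted p of 5.52e-08 by limma. Cortex was the lower region in 75 of 91 mice with both. The sign of this small difference depended on scaling: after quantile normalization of the arrays of both regions it was 0.10, which shifted the median of all probe sets from -0.15 to -0.018. Idi1, which isomerizes the isoprenoid building block, ran from 8.80 to 9.51 in cortex (median 9.17) and from 9.45 to 10.19 in thalamus (median 9.78). Its difference was -0.62 ± 0.019 (SE), lower in cortex in 91 of 91 mice, with an adjusted p of 1.41e-82 in limma. A second Idi1 probe set, 1423804_a_at, did not share it, with a difference of -0.028 and a limma adjusted p of 0.318.

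Fdft1, squalene synthase, ran from 10.36 to 10.89 in cortex (median 10.59) and from 10.77 to 11.28 in thalamus (median 10.996). The difference was -0.40 ± 0.013 (SE; limma adjusted p 5.14e-76), and 91 of 91 mice showed it. Because probes of the "_x_at" kind used here can bind related transcripts, the probe set 1448130_at of the same gene was read too, and it gave -0.46. The remaining Fdft1 probe sets differed far less, 1438918_at by -0.064 and 1438919_x_at by -0.11, and after quantile normalization by 0.089 and 0.039. Their values were low, with means of 5.64 and 5.36 in cortex, against 10.60 for the chosen probe set and 10.15 for 1448130_at. Sqle, the epoxidase that makes the first oxygen-dependent step, lay between 9.58 and 10.26 in cortex (median 9.97) and between 10.27 and 10.73 in thalamus (median 10.50). It was the single member whose 2 ranges did not touch, with a difference of -0.54 ± 0.014 (SE; limma adjusted p 8.70e-94). Lss, the cyclase that forms lanosterol, lay between 7.89 and 8.52 in cortex (median 8.22) and between 8.30 and 9.01 in thalamus (median 8.66). Its difference of -0.43 ± 0.018 (SE, limma adjusted p 5.52e-61) held in 90 of 90 mice, although the ranges overlapped. The other Lss probe sets differed less: 1420013_s_at by -0.23, and 1420014_at by -0.078, which was not called (limma adjusted p 0.0640). After quantile normalization they gave -0.063 and 0.070. Values of 1420014_at were low as well, with a mean of 5.42 in cortex.

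Sc5d, the desaturase that acts on the sterol B ring late in the pathway, was the most variable member, from 8.37 to 9.94 in cortex (median 9.19) and from 8.94 to 10.44 in thalamus (median 9.62). Its difference was -0.47 ± 0.045 (SE; limma adjusted p 2.55e-20), seen in 89 of 91 mice while the ranges overlapped widely. Dhcr7, the reductase of the last step, ran from 8.27 to 9.01 in cortex (median 8.69) and from 8.97 to 9.75 in thalamus (median 9.42). All 91 mice had the lower value in cortex, by -0.72 ± 0.020 (SE; limma adjusted p 8.20e-92), with 2 cortex arrays above the lowest thalamus array. Insig1, which holds SCAP in the endoplasmic reticulum when sterol is plentiful, had the largest difference of the 8. It ran from 8.35 to 9.19 in cortex (median 8.73) and from 9.06 to 10.04 in thalamus (median 9.49), a difference of -0.76 ± 0.025 (SE; limma adjusted p 4.70e-79) or 1.70-fold, and 91 of 91 mice showed it.

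**Figure D1:**
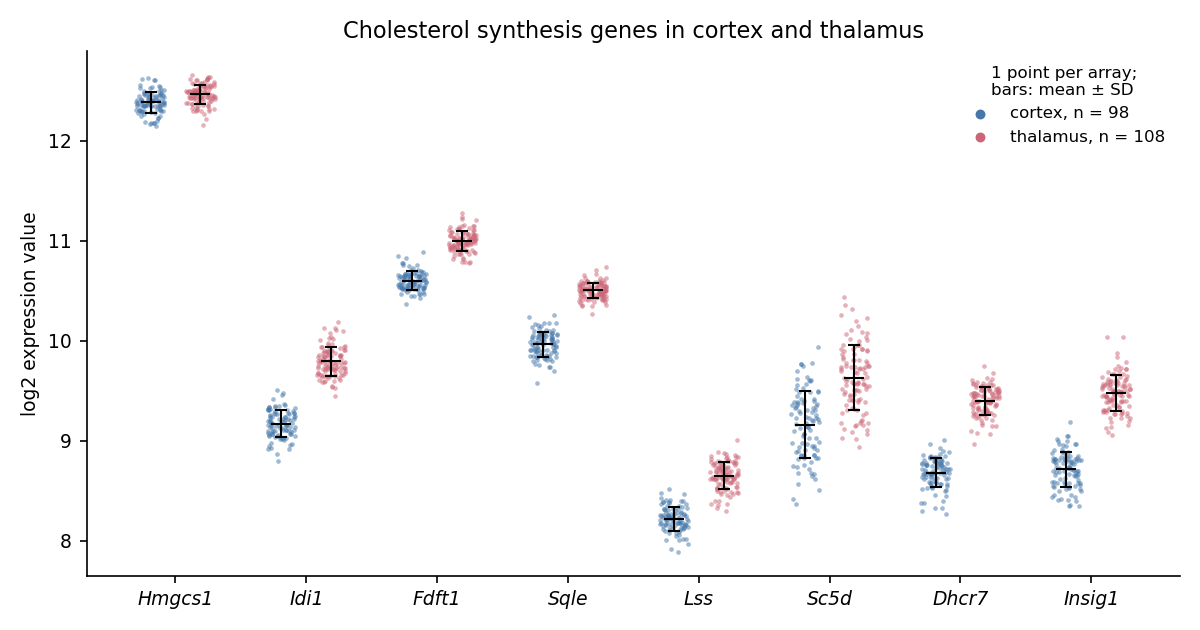
Log2 expression values (vertical axis) of the chosen probe set of each member in cortex and thalamus, 1 point per array, with bars for the mean and SD. The Sqle clouds do not touch, the Hmgcs1 clouds nearly coincide, and Sc5d has the widest spread; heights of different genes are not comparable on arrays.

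Over all 20 probe sets of the members, 16 were lower in cortex, 0 higher and 4 not called. After quantile normalization 11 were lower and 5 higher, and of the 8 chosen probe sets 7 were lower, 2 of them by 0.5 or more (background 44.1% and 9.62%). In the arrays of the 1 hybridization batch that both regions shared, 14 of cortex and 20 of thalamus, the counts were again 8 and 4. The shares of all probe sets called in those arrays are not given here.

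The other enzymes of the pathway were all lower in cortex as well: 11 of 11 measured, 7 of them by 0.5 or more, with a median difference of -0.53, where 3702 of all 18193 genes were lower by 0.5 or more. After quantile normalization all 11 were still lower, 3 of them by 0.5 or more, with a median of -0.36, against 2219 of all genes. The largest differences were those of Ebp, the sterol isomerase (-0.78), Lbr, a sterol reductase of the nuclear envelope (-0.73), Pmvk, which phosphorylates mevalonate phosphate (-0.68), and Tm7sf2, the other reductase of that step (-0.67). Among 7 measured genes of sterol sensing all 7 were lower, led by Srebf1 (-0.83), which encodes the SREBP of fatty acid synthesis, while Srebf2, the gene of SREBP-2, differed by -0.15, and after quantile normalization 4 were lower and 1 higher, against 9111 and 6466 of all genes. Of 11 genes of uptake, transport and removal, 7 were lower, among them Npc2 (-0.81) and Npc1 (-0.74), which carry sterol out of lysosomes, and 3 were higher, which became 6 and 5 after quantile normalization. The 3 were Cyp46a1 (0.56), the neuronal hydroxylase that lets cholesterol leave the brain, Vldlr (0.39), a lipoprotein receptor, and Mylip (0.099), which degrades such receptors. Fatty acid synthesis genes, a neighbouring SREBP pathway, were lower in 9 of 9, with Scd1 (-1.38), Fads2 (-1.11) and Fasn (-1.03) in front.

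Oligodendrocyte markers moved the same way. All 9 measured were lower in cortex, with a median difference of -0.88, and their mean log2 level lay between 10.42 and 11.29 in cortex and between 11.71 and 12.09 in thalamus, with no overlap. Astrocyte markers were lower in 7 of 9 and higher in 2, and neuron markers lower in 5 of 9 and higher in 3. Endothelium markers were lower in 7 of 7, while 6 of 8 microglia markers were higher and 1 lower. Of all genes 12115 of 18193 were lower and 4006 higher. After quantile normalization neuron markers became 5 lower and 4 higher, endothelium markers 6 lower and microglia markers 8 higher. The oligodendrocyte and astrocyte counts did not change, and of all genes 9111 were lower and 6466 higher. Bulk tissue cannot tell fewer cells of a type from less RNA per cell, and the part of these cell types in the members' difference was not tested.

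The 8 members differed in how far a mouse's value in 1 region went with its value in another. Over 6 pairs of regions, 18 of 48 correlations were called positive, against 7.17% of those of all probe sets (adjusted p under 0.05 over all 45037 probe sets of a pair; between 67 and 91 mice per pair, 1 or 2 fewer for probe sets with missing values). By the chosen probe sets, Sc5d was called in 6 pairs, Hmgcs1 in 5, Fdft1 in 3 and Sqle in 2. Insig1 and Lss were called in 1 each, and Idi1 and Dhcr7 in none. The 3 of Fdft1 rest on 1438322_x_at, while 1448130_at of the same gene was called in 0 pairs (median r 0.16). Of all probe sets 3.28% were called in 6 pairs. In the arrays of the largest hybridization batch of each region, with 55 to 72 mice per pair, 12 correlations were called. The counts became 3 for Hmgcs1, 1 for Fdft1 and 0 for Sqle, and the share of all probe sets called there is not given here.

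Sc5d carried the strongest agreement. Between cortex and thalamus its Pearson r was 0.81 and its Spearman rho 0.80 (n = 91, permutation p 1e-05 for both, the smallest that 100000 permutations can give; adjusted p 2.85e-20, background of this pair 8.75%). Without the 2 mice farthest from the cortex median r was 0.79, and over the other 5 pairs it ran from 0.59 to 0.72. For Hmgcs1 the same pair gave r = 0.57 and rho = 0.54 (n = 91, permutation p 1e-05 for both, adjusted p 1.47e-07), and r = 0.58 without the 2 farthest mice. Its other pairs ran from 0.33 to 0.43, and hippocampus with hypothalamus was not called (adjusted p 0.0638). Fdft1 was called for cortex with thalamus (r = 0.37), cortex with hypothalamus (0.37, background 6.62%) and hypothalamus with thalamus (0.34, background 7.9%). Sqle was called for cortex with hippocampus (0.39, background 5.53%) and with hypothalamus (0.38).

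Insig1 had 1 strong pair, hippocampus with hypothalamus, where r was 0.59 and rho 0.63 (n = 67, permutation p 1e-05 for both, adjusted p 5.28e-06, r = 0.59 without the 2 farthest mice, background 8.54%). Its other 5 pairs ran from 0.21 to 0.31 and were not called. By its chosen probe set Lss likewise was called for hippocampus with thalamus alone, with r = 0.46 and rho = 0.46 (n = 73, permutation p 2e-05 and 7e-05, adjusted p 0.00115, r = 0.43 without the 2 farthest mice, background 5.69%). By 1420013_s_at Lss was called for cortex with thalamus instead (r = 0.31, adjusted p 0.0381, background 8.75%). For Idi1, r ran from 0.083 to 0.29, and for Dhcr7 from -0.074 to 0.26. That Sc5d was called in more pairs than Idi1 or Dhcr7 is a count, and the differences between members were not tested.

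**Figure D2:**
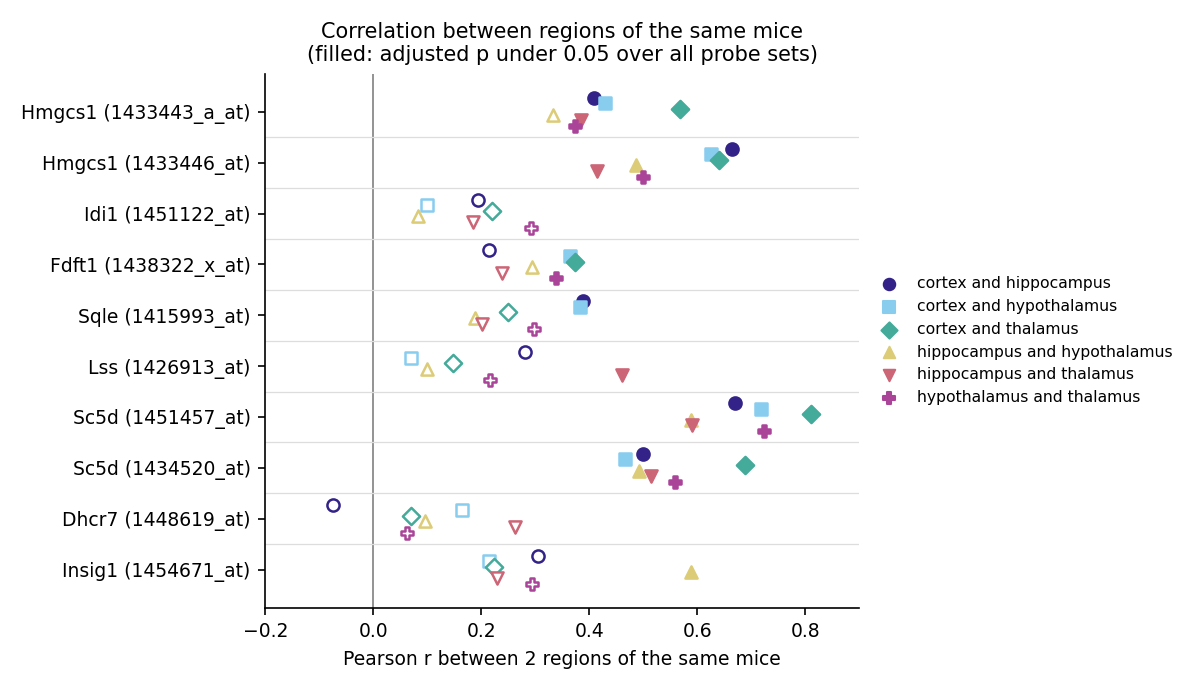
Pearson r between 2 regions of the same mice (horizontal axis) for the chosen probe set of each member and a second probe set of Hmgcs1 and Sc5d, 1 symbol per pair of regions, filled where the adjusted p over all probe sets was under 0.05. Both Sc5d rows are filled throughout, while the Idi1 and Dhcr7 rows hold open symbols only.

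By the chosen probe set, Sc5d also had the widest spread among mice. In cortex its SD was 0.34, above that of 87.1% of all probe sets, and in thalamus 0.33, above 84.7%. Hmgcs1 had an SD of 0.10 in cortex, above 7.30% of probe sets, and its SD in hippocampus exceeded that of 0.220%. Fdft1 was also narrow, with an SD of 0.092 in cortex, above 4.07% of probe sets. Within hippocampus Sc5d ran from 8.10 to 9.10 (median 8.60) and Hmgcs1 from 13.31 to 13.53 (median 13.42). Within hypothalamus Sc5d ran from 8.73 to 9.83 (median 9.20) and Hmgcs1 from 12.83 to 13.10 (median 12.95). In both regions Hmgcs1 had the narrowest and Sc5d the widest range of the members. The SDs of the other 6 members lay between 0.079 and 0.15. Sc5d was wide there only beside the members: its SD was 0.20 in hippocampus, above 37.4% of all probe sets, and 0.21 in hypothalamus, above 44.8%. These spreads belong to the chosen probe sets. By 1433446_at the SD of Hmgcs1 was 0.24 in cortex, above 56.6% of probe sets, and 0.16 in hippocampus. By 1434520_at the SD of Sc5d was 0.15 in hippocampus and 0.14 in hypothalamus, inside the range of the other members.

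The 3 probe sets of Sc5d did not all run together. Within a region 1424709_at went with 1434520_at in cortex (r = 0.44, permutation p 1e-05), thalamus (0.34, permutation p 0.00026) and hypothalamus (0.24, permutation p 0.0192), and gave 0.079 in hippocampus. With 1451457_at it gave r from -0.14 to 0.19. On the same cortex arrays 1451457_at and 1434520_at were opposed, with r = -0.68 and rho = -0.69 (n = 98, permutation p 1e-05 for both, r = -0.66 without the 2 farthest arrays), and in thalamus r was -0.53. In hippocampus and hypothalamus it was -0.19 and -0.21. Each of them was nevertheless repeated from region to region: 1434520_at was called in 6 of 6 pairs, with r from 0.47 to 0.69. Set across regions, 1451457_at in cortex against 1434520_at in thalamus of the same mice gave r = -0.51 and rho = -0.46 (n = 91, permutation p 1e-05 for both, r = -0.54 without the 2 farthest mice), and all 12 such crossings were below 0, from -0.28 to -0.68. Across regions 1424709_at was called in 0 of 6 pairs (r from 0.056 to 0.15). Both 1434520_at (-0.64) and 1424709_at (-0.48) gave the lower level in cortex that 1451457_at gave. A single value for Sc5d in a mouse therefore depends on the probe set read; genotypes and probe sequences were not analysed here.

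**Figure D3:**
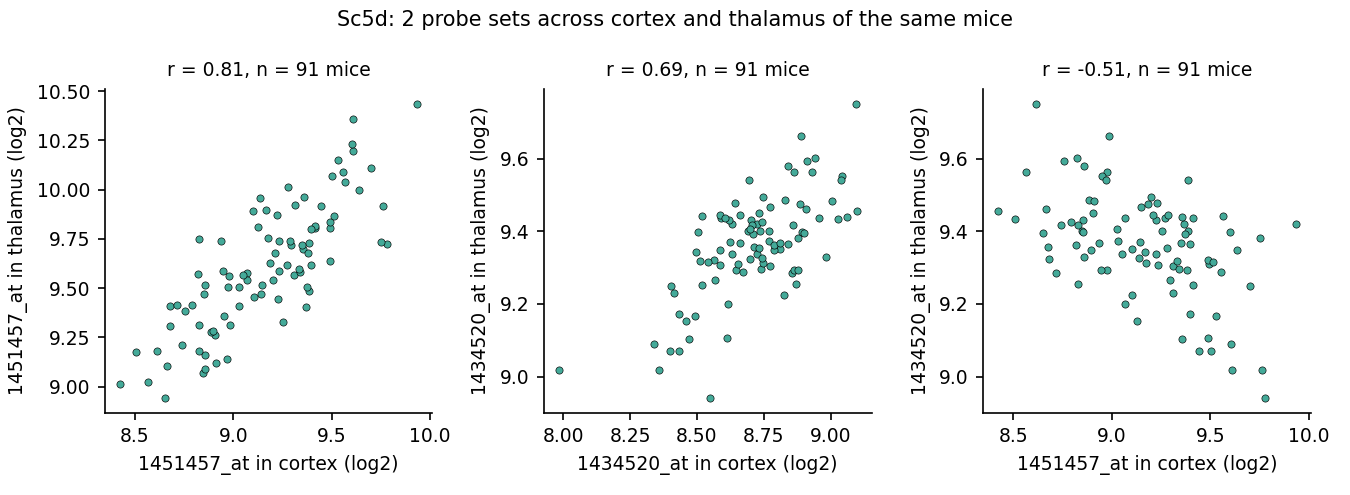
Log2 values of Sc5d probe sets in cortex (horizontal axes) and thalamus (vertical axes) of 91 mice, 1 point per mouse: 1451457_at in both regions (r = 0.81), 1434520_at in both (r = 0.69), and 1451457_at in cortex against 1434520_at in thalamus (r = -0.51). Mice high by one probe set in cortex tend to be low by the other in thalamus.

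The Hmgcs1 probe sets 1433443_a_at and 1433446_at had negative r across regions, in part weak, but not in every region on the same arrays. Within a region r was -0.29 in hippocampus (permutation p 0.00817) and -0.29 in hypothalamus (permutation p 0.00429), while it was -0.16 in cortex (permutation p 0.128) and 0.019 in thalamus (permutation p 0.843). Another Hmgcs1 probe set, 1433445_x_at, ran with 1433443_a_at in cortex (0.52) and thalamus (0.43), both with a permutation p of 1e-05, and gave 0.035 and 0.10 in hippocampus and hypothalamus. It ran with 1433446_at too, in cortex (0.35, permutation p 0.00045), hippocampus (0.40, permutation p 0.00023) and thalamus (0.49, permutation p 1e-05), and gave 0.13 in hypothalamus. For 1433444_at, r with 1433446_at ran from 0.21 to 0.59. The probe set 1433446_at was called in 6 of 6 pairs, with r from 0.41 to 0.66, more than the 5 of 1433443_a_at. The remaining Hmgcs1 probe sets were called in fewer pairs: 1441536_at in 2, 1433445_x_at in 1 and 1433444_at in 0. Across regions all 12 crossings of 1433443_a_at and 1433446_at were below 0, from -0.092 to -0.46. Hypothalamus for 1433443_a_at against cortex for 1433446_at gave the -0.46 (rho = -0.49, n = 80, permutation p 4e-05 and 1e-05). Cortex for 1433443_a_at against hippocampus for 1433446_at gave the -0.092 (permutation p 0.451). With 1433443_a_at read in thalamus the permutation p of r ran from 0.142 to 0.29, so part of these crossings were weak. The 2 probe sets of Idi1 ran together, with r from 0.37 to 0.63 within the 4 regions, and so did 1438322_x_at and 1448130_at of Fdft1, with r from 0.31 to 0.62. The other Fdft1 pairs did not: 1438322_x_at gave r from -0.16 to 0.026 with 1438918_at and from -0.073 to -0.026 with 1438919_x_at, and 1448130_at from -0.064 to 0.12 and from -0.17 to 0.077 with them. Both 1438918_at and 1438919_x_at had low values, as given above. For Lss, 1420013_s_at and 1426913_at gave r between -0.036 and 0.12. Of all 20 probe sets, 9 were called in no pair of regions.

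To see which genes each member most resembled, all 18193 genes were ranked by the absolute value of r across mice, averaged over the 4 regions. The members fell into different groups. Among the 20 genes closest to Sc5d, 19 lay on its own chromosome 9 by either probe set, where 5.55% of all genes lie. For Insig1 16 of 20 lay on chromosome 5 (6.22% of genes), and for Hmgcs1 12 of 20 by 1433443_a_at and 17 of 20 by 1433446_at lay on chromosome 13 (3.89%). Fdft1 had 0 neighbours on its own chromosome among its 20, Sqle, Lss and Dhcr7 had 1 each, and Idi1 had 2. These correlations come from shared arrays and are descriptions.

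Sterol synthesis genes made the opposite count. Fdft1 had 8 of them among its 20 closest genes, Idi1 6, Sqle 3 and Lss 2, where such genes are 0.0989% of all. Hmgcs1 had 5 by 1433443_a_at and 1 by 1433446_at. Sc5d, Dhcr7 and Insig1 had 0. The genes closest to Fdft1 were Idi1 (r = 0.50, mean of 4 regions), Msmo1, the sterol methyl oxidase (0.42), Hmgcs1 (0.41), Sqle (0.40) and Hsd17b7, a sterol ketone reductase (0.38). Hmgcs1 appeared on both sides. By 1433443_a_at its 4 closest genes had negative r and lay on chromosome 13, namely 4833420G17Rik (-0.49), Tmem267 (-0.47), Ccl28 (-0.46) and 3110070M22Rik (-0.42), ahead of Fdft1. The positive ones on that chromosome were led by Nnt (0.37), Zfp367 (0.37), Mast4 (0.35) and Gzmk (0.33).

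Genes next to Hmgcs1 on the chromosome went in opposite directions with its 2 probe sets. Tmem267, with 2 annotated genes between in the gene order of GRCm38.p6, had a mean r of -0.47 with 1433443_a_at and 0.68 with 1433446_at, and Ccl28, with 1 gene between, -0.46 and 0.61. For Sc5d the closest gene by both probe sets was Tmem25, with r = 0.76 for 1451457_at and -0.56 for 1434520_at, and 75 annotated genes between. Insig1 was closest to Ppp1cb (0.47), with 118 genes between, and Dhcr7 to Alg2 (0.47), a mannosyltransferase gene of another chromosome.

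**Figure D4:**
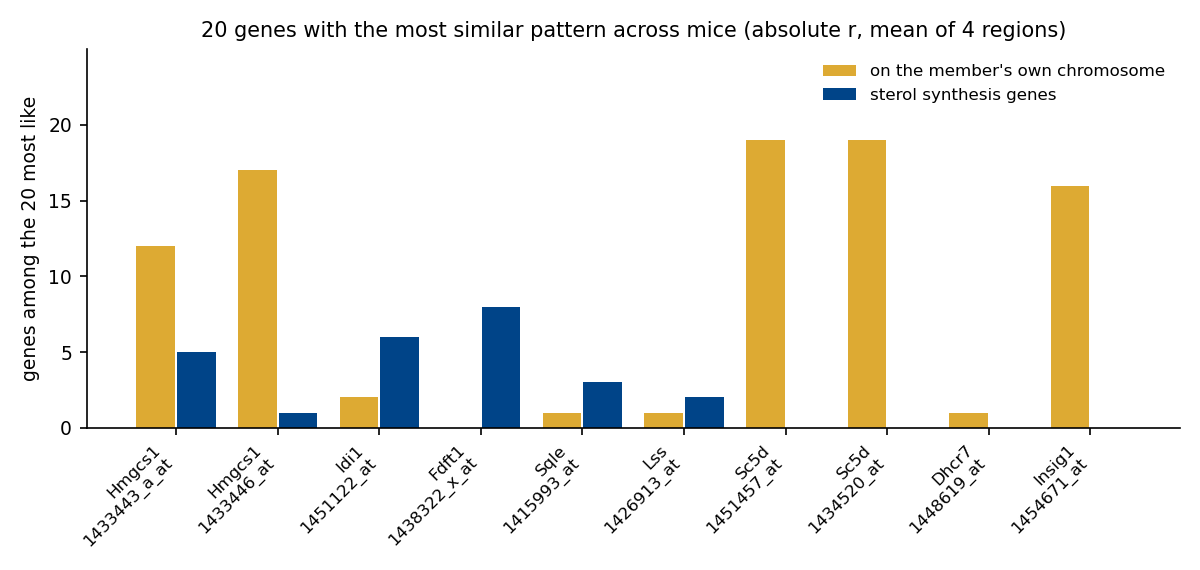
Number of genes (vertical axis) among the 20 most similar across mice to each member's probe set (horizontal axis) that lie on the member's own chromosome or that are sterol synthesis genes. Own-chromosome genes fill most of the 20 for Sc5d, Insig1 and the second Hmgcs1 probe set, and sterol synthesis genes are most frequent for Fdft1 and Idi1.

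Within a region, pairs of members mostly varied in the same direction across mice. The median r of the 28 pairs was highest in thalamus, at 0.29, and 0.16, 0.19 and 0.15 in cortex, hippocampus and hypothalamus, against, in the order cortex, hippocampus, hypothalamus and thalamus, 0.012, 0.0042, -0.00020 and 0.0026 for the members with all other genes. Each pair was fitted both ways in limma, 56 fits a region, and 3 were called positive in cortex (background 0.374% of all fits), 4 in hippocampus (0.297%), 4 in hypothalamus (0.253%) and 19 in thalamus (0.343%). These calls covered 2, 2, 2 and 12 of the 28 pairs. In the arrays of the largest hybridization batch the calls were 2, 3, 3 and 18. The shares of all fits called in those arrays are not given here. Thalamus had the most arrays, and the difference between regions was not tested.

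In thalamus Fdft1 was called with 6 of the 7 other members. With Idi1 it gave r = 0.62 and rho = 0.63 (all thalamus arrays, permutation p 1e-05 for both, r = 0.63 without the 2 farthest arrays), and with Hmgcs1 r = 0.62 and rho = 0.62 (permutation p 1e-05 for both, r = 0.59 without the 2 farthest). Sqle with Fdft1 gave 0.55, Hmgcs1 with Sqle 0.47, Dhcr7 with Fdft1 0.45 and Hmgcs1 with Idi1 0.44. Sc5d was called with Hmgcs1 alone (0.35), and Insig1 with Fdft1 alone (0.37). Dhcr7 and Sc5d, which share the last steps of the pathway, gave r = -0.040.

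Idi1 with Fdft1 was called in 3 regions, cortex (r = 0.50) and hypothalamus (0.58) besides thalamus. It gave 0.30 in hippocampus, with limma adjusted p of 0.332 and 0.258 in the 2 fits. Sqle with Fdft1 was called in cortex (0.39, in 1 of its 2 fits) besides thalamus, and Hmgcs1 with Idi1 in hypothalamus (0.45) besides thalamus. Sqle with Dhcr7 (0.49) and Sc5d with Lss (0.46) were called in hippocampus and in no other region. Insig1 had no called pair in those 3 regions.

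The members of thalamus also went with the oligodendrocyte markers. Across mice their r with the mean of the 9 markers ran from 0.045 for Sqle to 0.40 for Dhcr7, with a median of 0.35, against medians of 0.087 in cortex, 0.14 in hippocampus and 0.19 in hypothalamus. Markers of other cell types went with the members as well. In hippocampus the medians for neuron and astrocyte markers, both 0.24, were above the one for oligodendrocytes, and in thalamus the neuron median was 0.18 and the astrocyte median 0.16. Fdft1 in thalamus had r = 0.38 with neuron markers and 0.33 with oligodendrocyte markers. The part of neuron and astrocyte markers in the members' covariation was not tested. With the oligodendrocyte mean as a further term, 10 of the 56 thalamus fits were called, on 5 pairs, and the median r was 0.21. The 5 pairs were Hmgcs1 with Sqle (0.49), Hmgcs1 with Fdft1 (0.56), Sqle with Fdft1 (0.57), Dhcr7 with Fdft1 (0.36) and Idi1 with Fdft1 (0.57). With the first 5 principal components taken out 11 were called. The shares of all fits called in both alternatives are not given here.

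**Figure D5:**
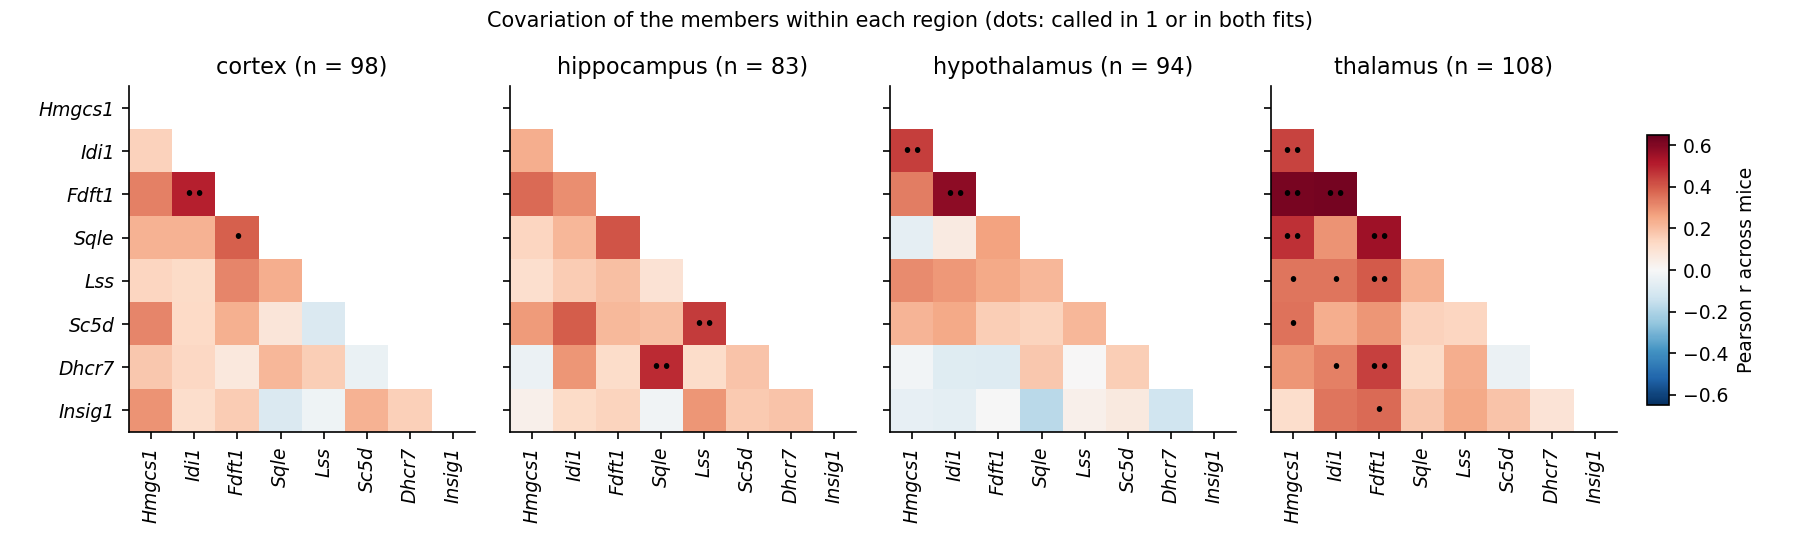
Pearson r across mice (colour) between the members within each of the 4 regions, with n arrays per region, 1 dot where 1 of the 2 limma fits of a pair was called and 2 dots where both were. The thalamus panel is the reddest, with its darkest cells in the Fdft1 row and column.

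Other enzymes of the pathway followed the members as a group. Of the 11 measured, 9 were in the top 1% of all genes (181 of 18193) by mean r with the members over the 4 regions, with a median r of 0.17 against 0.0041 for all genes. Msmo1 (0.30), Nsdhl (0.24) and Hsd17b7 (0.21) were foremost, and Ebp (0.038) and Lbr (0.098) were the 2 outside. None of the 7 genes of sterol sensing was in the top 1% (median r 0.024), 1 of 11 of uptake and transport was, namely Stard4, a sterol carrier, 2 of 9 of fatty acid synthesis were (median 0.091), and 3 of 9 oligodendrocyte markers (median 0.11). Ranked by this measure, the 10 foremost genes that are no members were Msmo1, Nsdhl, Tmem25, Hsd17b7, Nxpe4, Rpp25, Vps33a, 1700063D05Rik, Foxred1 and 1110032A03Rik, of which 6 lie on chromosome 9, like Sc5d. Without Sc5d in the mean, an alternative chosen after the values were seen, Tmem25 fell to rank 34 and Nxpe4 to 43, while Msmo1 stayed at 2, Nsdhl at 4 and Vps33a reached 7.

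Sleep traits of the same mice were set against each member in each region, 12 traits first (amounts of wake, NREM and REM sleep, number of NREM bouts and NREM delta power, at baseline or in recovery). For the chosen probe sets limma called 0 of 384 relations, 17 had an unadjusted p under 0.05 (4.43%), and a fit on ranks also called 0, with 22 unadjusted p under 0.05. Of all probe sets 0.000416% were called. The lowest adjusted p was 0.377, for Dhcr7 in hypothalamus and wake in the dark phase after restraint (r = 0.39, rho = 0.21, n = 54, permutation p 0.00407 and 0.129, r = 0.27 without the 2 farthest mice). Sc5d in thalamus and the number of NREM bouts at baseline gave r = -0.28 (rho = -0.23, n = 102, limma adjusted p 0.491).

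A further 16 traits of the light or dark phase gave 0 calls in 512 for the chosen probe sets, with 26 unadjusted p under 0.05, against 0.00198% called of all probe sets. With all 20 probe sets of the members there were 0 calls in 960 for the 12 traits and 1 in 1280 for the 16. That call was Sc5d by 1434520_at in thalamus with the amount of REM sleep in the dark phase at baseline, where r was 0.44 and rho 0.39 (n = 102, permutation p 1e-05 and 3e-05, limma adjusted p 0.0373, r = 0.36 without the 2 farthest mice). The opposed probe set 1451457_at gave r = -0.33 there (adjusted p 0.288) and was below 0 in the other 3 regions as well, from -0.16 to -0.30. By 1434520_at r was 0.26 in cortex, 0.25 in hippocampus and 0.28 in hypothalamus, none called, and for REM over 24 h in thalamus 0.33 (limma adjusted p 0.594).

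That call depended on the fit. RIN as a further term left the limma adjusted p at 0.0409, and cohort as a term gave 0.0785. Ranks gave 0.323, and the 80 arrays of the largest hybridization batch 0.468. All of these alternatives were chosen after the value was seen. In thalamus 11 probe sets were called with that trait, 0.0244% of all. They included 1434520_at and stood for 7 other named genes, of which 6, Cryab, Cep164, 2900052N01Rik, Tmem25, 1700063D05Rik and Ccdc153, lie on chromosome 9 and were among the 20 genes closest to Sc5d by either of its opposed probe sets. The trait thus went with a group of chromosome 9 transcripts that includes Sc5d, and these values do not single out 1 of them.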

How the data were processed

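Per the submitters' processing notes, RMA in affy made the log2 values (no versions given). Cohort effects had been removed: cohort explained a median of 0.694% to 1.51% of a probe set's variance, where chance would give 7.48% to 8.60%, so p-values can be somewhat too small. The deposited trait values are of other units, partly transformed, so relations are given as r. Probe sets were named from the platform's annotation (34945 with 1 symbol, 932 with several, 9160 with none). Cortex and thalamus were compared, and members and traits fitted, with limma 3.58.1 in R 4.3.3 (lmFit, eBayes with a trend), without the animal as a block, although the animal labels pair the regions. Adjusted p-values cover all 45037 probe sets, and permutations were two-sided. On simulated data with 200 changed probe sets among 45037, recovery was 100.0% for an added 0.5 log2 between cortex and thalamus, 99.0% for a slope of 0.6 SD on a covariate and 98.0% for a correlation of 0.6 over 67 mice. Members and lists were chosen with earlier results of these data known. Named genes were the members, the largest differences of each list, the 20 nearest patterns and the 10 genes most like the members. List genes without a single-symbol probe set were not analysed here.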

Additional observations from a re-analysis of the deposited data

How the results depend on the processing

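Quantile normalization of the cortex and thalamus arrays reversed the difference of Hmgcs1 to 0.10, left 2 members lower by 0.5 or more in place of 4, and moved the median of all probe sets to -0.018. The cortex and thalamus calls were 8 lower and 4 by 0.5 or more with the animal as a replicate block, a pairing given by the labels (consensus correlation 0.057). They were the same with hybridization batch, RIN, a low-value filter, all 4 regions in 1 fit or another choice of probe set. The block changed none of these calls. With 5 principal components removed, within-region calls became 5 in cortex, 2 in hypothalamus and 11 in thalamus, and with the oligodendrocyte marker mean as a term 10 in thalamus. The count of 18 correlations between regions ran from 12 to 20 over its alternatives; Sqle had 4 called pairs by rank correlation, Idi1 1, and Insig1 2 with 5 components removed. The sleep count stayed at 0 under each of its 4 alternatives. The cause of these shifts was not tested. Apart from quantile normalization, the shares of all probe sets called under these alternatives are not given here. Most cortex and thalamus arrays were hybridized in different batches, and a weak relation over 36 to 102 mice may be missed. Genotypes were not analysed here.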
